A study of Mus musculus with 5 samples.

Results

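Phase II conjugation enzymes couple drugs, bile pigments, steroids and reactive metabolites to a small polar group so that they can leave the cell. The genes examined here were the glutathione S-transferases (Gst), the microsomal glutathione S-transferases (Mgst), the UDP-glucuronosyltransferases (Ugt) and the sulfotransferases (Sult). They were picked by mouse gene symbol with the Gsta paralogue Gm3776 added. The symbols matched 65 of 55397 listed genes, and 54 of these had a mean of at least 10 normalised counts over the libraries and were tested among 17105 genes. Members just inside that limit were Sult2a4 and Sult2a7, with means of 18.1 and 19.8, and members just outside it were Gsto2 and Ugt1a2, with means of 8.39 and 7.38.

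Bulk RNA-seq was carried out on liver tumours cut out of C57BL/6N mice, all female and injected at 8 weeks of age. Hydrodynamic tail vein injection delivered Sleeping Beauty transposase (4 µg) and transposon plasmids (10 µg each) to the liver, where mainly hepatocytes take up the DNA. In both groups these plasmids carried Akt and the NOTCH1 intracellular domain (NICD), the latter joined to the doxycycline-dependent activator rtTA, behind an EF1a promoter. The 3 Prox1 overexpression (Prox1 OE) libraries came from mice that also received FLAG-tagged mouse Prox1 with GFP behind a Tre promoter, and the 2 Control libraries from mice that received the same vector with GFP alone. Doxycycline food (6.25%) was given to both groups from day 21, for overexpression between weeks 3 and 4. Tumours were taken either 1 week into overexpression or when a humane endpoint was met, and the labels assign neither to a tumour and do not say that replicates came from separate mice, so p-values measure the spread between these samples. Totals ran from 48740863 to 56629477 reads per library and overlapped between the groups, and 1 read was worth 0.822 to 1.18 normalised counts.

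Conjugation needs an enzyme and a donor. Gst and Mgst enzymes use glutathione and act on electrophiles, Ugt enzymes use UDP-glucuronic acid in the endoplasmic reticulum, and Sult enzymes use the activated sulfate PAPS in the cytosol. All 4 families are abundant in hepatocytes, and several of their genes lie in tandem arrays of close copies whose reads can be hard to assign to 1 gene.

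To check the overexpression, Prox1 itself was examined first. Prox1 was at 4153 and 4664 normalised counts in Control replicates 1 and 2 and at 48089.8, 11113 and 8231 in Prox1 OE replicates 1, 2 and 3. The groups did not overlap, but the Prox1 OE libraries differed widely, and the log2 difference of 1.90 ± 0.66 (SE) missed the threshold (adjusted p = 0.0607, limma). Prox1 was called higher under 4 alternatives, namely by edgeR (adjusted p = 0.0478), with the replicate block (adjusted p = 0.00134), without Prox1 OE replicate 1 (adjusted p = 0.00556) and without Prox1 OE replicate 3 (adjusted p = 0.0325), and over all alternatives the log2 difference ran from 1.12 to 2.39. The mouse genes of the tumour-driving plasmids were lower. Akt1 was at 57782 and 55267 normalised counts in Control and at 30413, 29720.0 and 22530.0 in Prox1 OE (log2 difference -1.05 ± 0.18, adjusted p = 0.00574), and Notch1 at 13002 and 11967 against 7027, 5094 and 4524 (-1.19 ± 0.19, adjusted p = 0.00463). Reads from the plasmids and from the mouse's own genes cannot be told apart in these counts. Marker lists moved between the groups as well. Their counts stand beside the 17.1% of all tested genes that rose and the 16.2% that fell. Of 10 hepatocyte markers 7 rose, with summed levels of 1414927 and 2025917 normalised counts in Control and 4062795 to 5553116 in Prox1 OE. Of 10 cholangiocyte markers 8 fell, including Krt19, with sums of 773714 to 843653 against 531278 to 719634. Most of these sums came from Spp1, which was not called (log2 difference -0.34, adjusted p = 0.514), and without it they were 58904 and 61703 against 24914, 30809 and 21961. All 4 proliferation markers fell (sums of 24752 to 37555 against 13149 to 17866). Of 7 stellate cell and fibroblast markers 3 fell (Col1a1, Col1a2 and Acta2) and 2 rose (Lrat and Reln), with sums of 77962 to 78164 against 39056 to 47072. Of 7 Kupffer cell and macrophage markers 3 rose (Clec4f, Vsig4 and Cd5l), with sums of 8099 to 10701 against 17370.4 to 26444. Of 6 endothelial markers 2 rose (sums of 7709.6 to 9943 against 9676 to 14007). Of 4 tested T and B cell markers 2 rose (sums of 95.8 to 99.4 against 175 to 265), and of 3 erythroid markers 1 rose (sums of 3921 to 5763 against 6630.3 to 13932). Of the 4 intestinal markers found, Fabp2 rose, Vil1 fell and Alpi had no read in any library (sums of 2438 to 2884 against 7325 to 12278). Of the 4 pancreatic markers, Cela1 rose and Prss1 had no read (sums of 377 to 402 against 787 to 954). The part that these shifts had in the enzyme results was not tested, and in bulk tumours fewer cells of a type and less RNA per cell cannot be told apart.

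Most phase II genes were higher in the Prox1 OE tumours. Of the 54 tested enzymes, 45 rose and 2 fell at an adjusted p under 0.05 by limma, where 17.1% of all 17105 tested genes rose and 16.2% fell. The remaining 7 were Gstm5, Ugt1a1, Ugt2b38, Sult1e1, Sult2a7, Sult2a8 and Sult3a1. The median log2 difference over the 54 was 1.51, against -0.02 over all tested genes. Ranges of the groups did not overlap for 50 enzymes that were higher in Prox1 OE, compared with 30.9% of all tested genes, and for 2 that were lower, compared with 32.4%. Sult2a4, Sult2a7 and Sult3a1 passed the limit on low values only through their Prox1 OE libraries, and without them 44 of 51 rose. The edgeR quasi-likelihood test on recovered reads called 46 of the 54 higher (17.3% of all genes) and DESeq2 called 50 (20.1%). The calls leaned on the small Control group. Without Control replicate 1, 22 enzymes were called higher and 3.98% of all genes, and only Sult1c2 was called lower. The rises that lost their call there were those of Gsta3, Gstm1, Gstm7, Gstp1, Gstp2, Gstt3, Mgst1, Mgst2, Sult1a1, Sult1d1, Sult2a1 to Sult2a6, Sult5a1, Ugt1a5, Ugt1a9, Ugt2b1, Ugt2b35, Ugt2b37 and Ugt3a1, with adjusted p from 0.0552 (Gstt3) to 0.211 (Ugt2b35). With 1 library left out, the log2 difference ran from 1.88 to 2.37 for Gstm1, from 1.31 to 1.62 for Mgst1 and from 0.92 to 1.63 for Sult1a1. Without Control replicate 2, 38 enzymes were called higher and 8.40% of all genes, and again Sult1c2 alone was called lower.

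**Figure D1:**
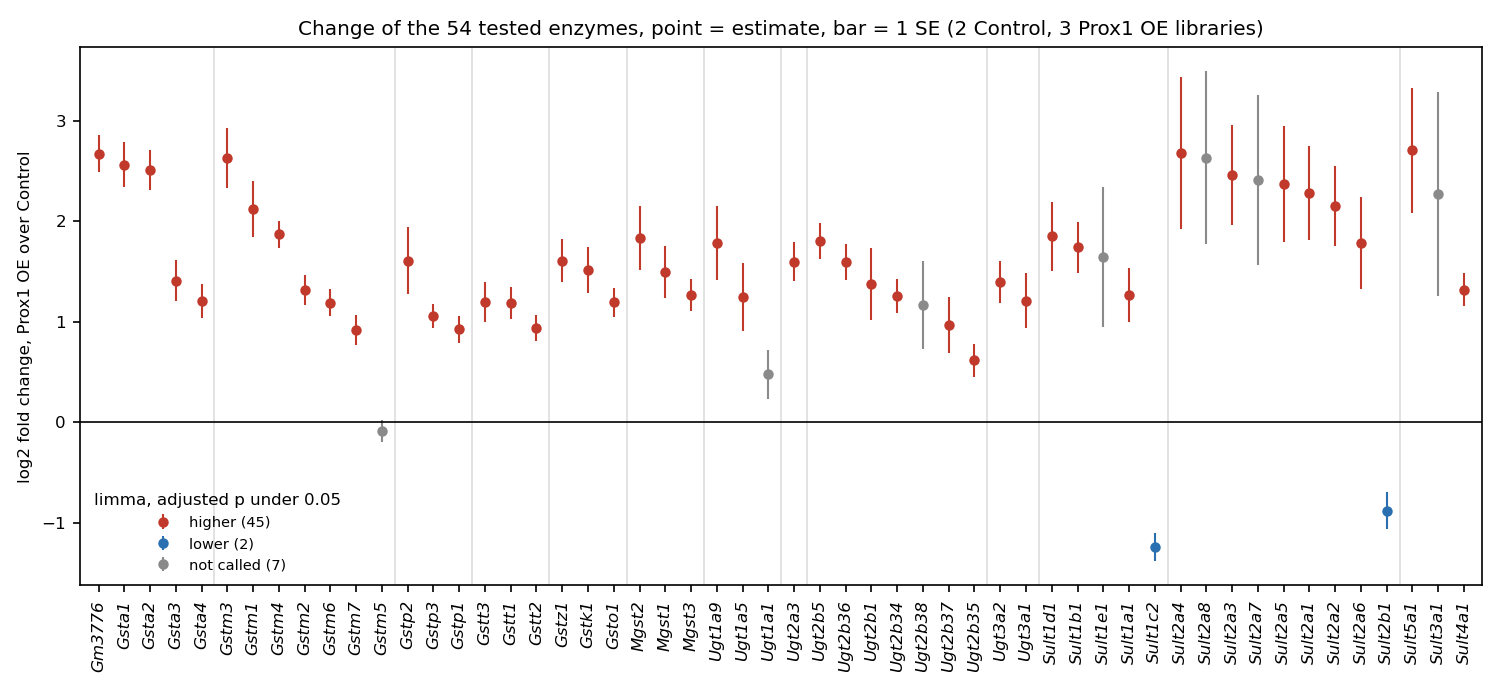
Log2 fold change of Prox1 OE over Control on the vertical axis for the 54 tested enzymes, grouped by subfamily, with bars of 1 SE from limma. Estimates ran from -1.24 for Sult1c2 to 2.71 for Sult5a1, with Gstm5 at -0.09 beside 6 Gstm genes that rose.

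The families also took a larger share of the tumour transcriptome. Together the 65 genes held 0.742% and 0.910% of reads in the Control libraries and 2.18%, 2.00% and 2.11% in the Prox1 OE libraries. Gst genes alone went from 0.477% and 0.611% of reads to 1.63%, 1.50% and 1.45%, and Mgst genes from 0.150% and 0.169% to 0.308%, 0.301% and 0.392%. Ugt genes went from 0.0941% and 0.0999% to 0.212%, 0.161% and 0.211%, and Sult genes from 0.0216% and 0.0309% to 0.0379%, 0.0425% and 0.0568%. In each family every Prox1 OE share lay above both Control shares. Ratios of the mean summed normalised counts, Prox1 OE over Control, were 3.77 for Gst, 2.85 for Mgst, 2.72 for Ugt and 2.37 for Sult. Normalised totals of the libraries were 43279087 and 45811088 in Control and 57408862 to 65539843 in Prox1 OE. The ratios of counts are therefore larger than those of the read shares.

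**Figure D2:**
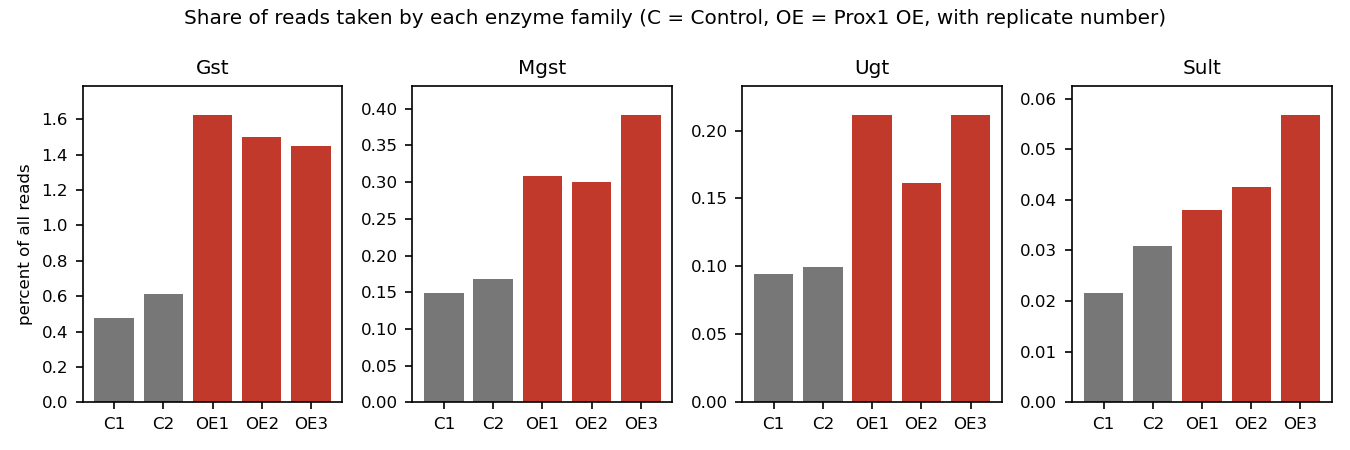
Percent of all reads in each library (vertical axis, from 0) that fell on the Gst, Mgst, Ugt and Sult genes, with Control bars in grey and Prox1 OE bars in red. All 3 Prox1 OE bars stand above both Control bars in each panel, and the Sult panel has the narrowest gap (0.0309% against 0.0379%).

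The mu class (Gstm), cytosolic enzymes abundant in rodent liver, made up most of the Gst reads. Gstm1 was the most highly expressed member per kilobase of exon in every library. It stood at 90063 and 126876 normalised counts in Control and at 448317, 457711 and 494076 in Prox1 OE, a log2 rise of 2.12 ± 0.28 (SE, adjusted p = 0.00301). Gstm1 by itself carried 43.7% to 53.0% of the Gst reads of a library. Gstm3 rose further, from 22406 and 39638 to 234193, 165573 and 163176 (log2 rise 2.63 ± 0.30, adjusted p = 0.00247). Its lowest Prox1 OE library was 4.12 times its highest Control library. Within the Gstm reads, the share of Gstm3 went from 15.9% and 19.9% to 31.1%, 24.0% and 22.2%. That ranking of levels shifted against the microsomal enzyme Mgst1, since per kilobase Mgst1 was above Gstm3 in both Control libraries (31431 and 37575 against 17091 and 30235) and below it in Prox1 OE replicates 1 and 2 (86219 and 83775 against 178637 and 126295). In Prox1 OE replicate 3 the pair stood at 125568 and 124467 per kilobase and could not be ranked.

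Gstm5 was the exception in its class. It was at 3331 and 3053 normalised counts in Control and at 2941, 3172 and 2913 in Prox1 OE. The groups overlapped, and the log2 difference was -0.09 ± 0.11 (SE) with a 95% interval from -0.34 to 0.17 and an adjusted p of 0.581. In genomic order Gstm5 lies at the edge of the Gstm array on chromosome 3 (mm10, chr3:107895821-108044894 for the array) and is the only one of its 7 genes on the plus strand. The other 6, on the minus strand, rose by 0.92 (Gstm7) to 2.63 (Gstm3) on the log2 scale. Scaling by the total count instead put Gstm5 at -0.52, called lower, and the median of all tested genes at -0.44.

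**Figure D3:**
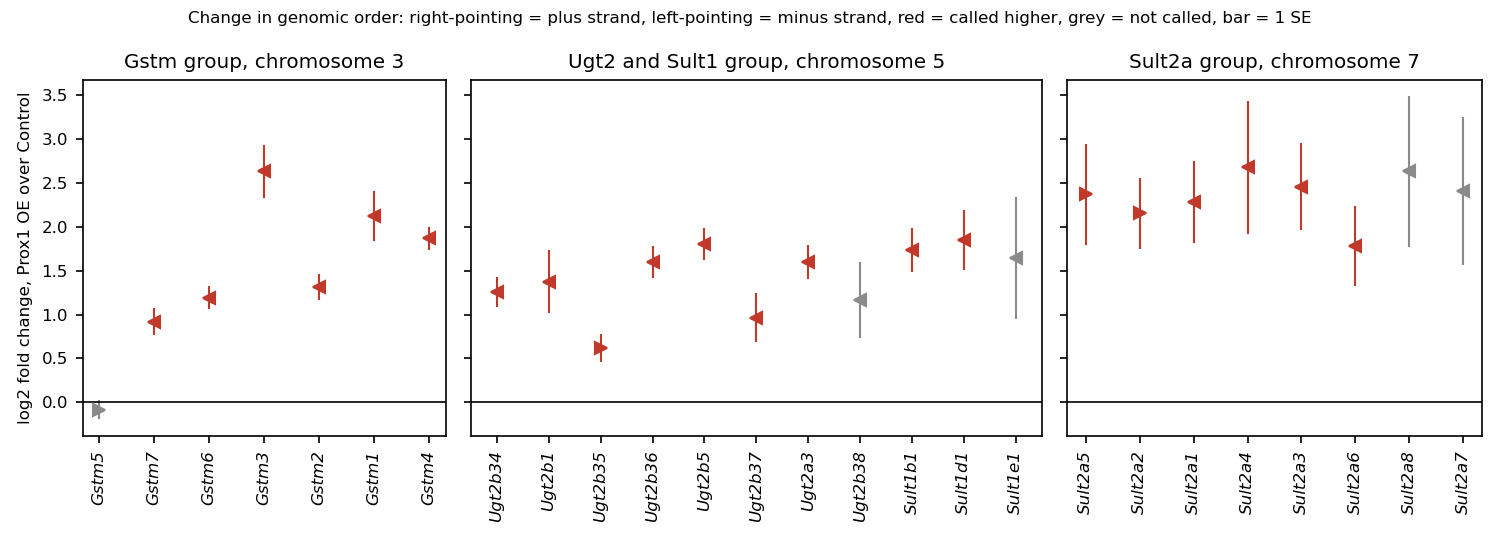
Log2 fold change of Prox1 OE over Control (vertical axis, bars of 1 SE) for tested genes of 3 arrays in their order along the chromosome. Gstm5 at -0.09 is the flat plus-strand end of its array, while the 8 Sult2a genes all lie between 1.78 and 2.68.

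Alpha class genes (Gsta), which handle products of lipid peroxidation and bind bilirubin and bile acids, all rose (5 of 5). Gsta3 was the most abundant per kilobase, at 23595 and 30483 normalised counts in Control and 69869, 61639.6 and 84278 in Prox1 OE (log2 rise 1.41 ± 0.20, adjusted p = 0.00350). Steeper rises were seen in the less abundant Gsta1, Gsta2 and Gm3776. Gsta1 went from 1284 and 1849 to 7037, 10803 and 9949 (2.56 ± 0.22), and Gm3776 from 328 and 411 to 1972, 2821 and 2337 (2.68 ± 0.18). These 2 genes are close copies, since 85.5% of the 100 base stretches of the Gm3776 transcript also occur in Gsta1, so their separate values are uncertain. Gsta2 went from 441 and 706 to 3204, 2958 and 3389.9 (2.51 ± 0.20), and 35.0% of its stretches are shared with Gm10639, a gene outside the symbol rule. Gsta4, which detoxifies aldehydes from oxidised lipids, rose by 1.21 ± 0.17 and shares no such stretch.

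In the pi class, Gstp1 was at 14387 and 15649 normalised counts in Control and at 31102, 26967 and 27764 in Prox1 OE (log2 rise 0.93 ± 0.14, adjusted p = 0.00365). Gstp3 rose by 1.06 ± 0.12. Gstp2, far lower at 96.1 and 84.8 against 184, 407 and 286, rose by 1.61 ± 0.33 (not called with either Control replicate left out), with 63.5% of its stretches shared with Gstp1. The theta class rose together, with Gstt1 at 1.19, Gstt3 at 1.20 and Gstt2 at 0.94 on the log2 scale, and Gstt4 was too low to test at 1.02 to 7.08 normalised counts. Gstz1, the maleylacetoacetate isomerase of tyrosine breakdown, went from 8686 and 12205 to 29865, 26881 and 38785 (1.61 ± 0.21). Gstk1, found in mitochondria and peroxisomes, rose by 1.52 ± 0.23, and Gsto1, a thiol transferase, by 1.20 ± 0.14. Gsto2 was at 4.72 to 11.6 in all libraries and was not tested.

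The membrane-bound Mgst enzymes conjugate or reduce lipid-derived substrates. Mgst1 took 97.6% to 98.5% of the family's reads and went from 63271 and 75638 normalised counts to 173559.7, 168639.7 and 252769 (log2 rise 1.49 ± 0.26, adjusted p = 0.00602). Mgst3 rose by 1.27 ± 0.16. Mgst2 was present at a low level, 18.9 and 28.0 against 102, 82.6 and 71.8, and rose by 1.83 ± 0.32. The groups did not overlap for any of the 3.

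**Figure D4:**
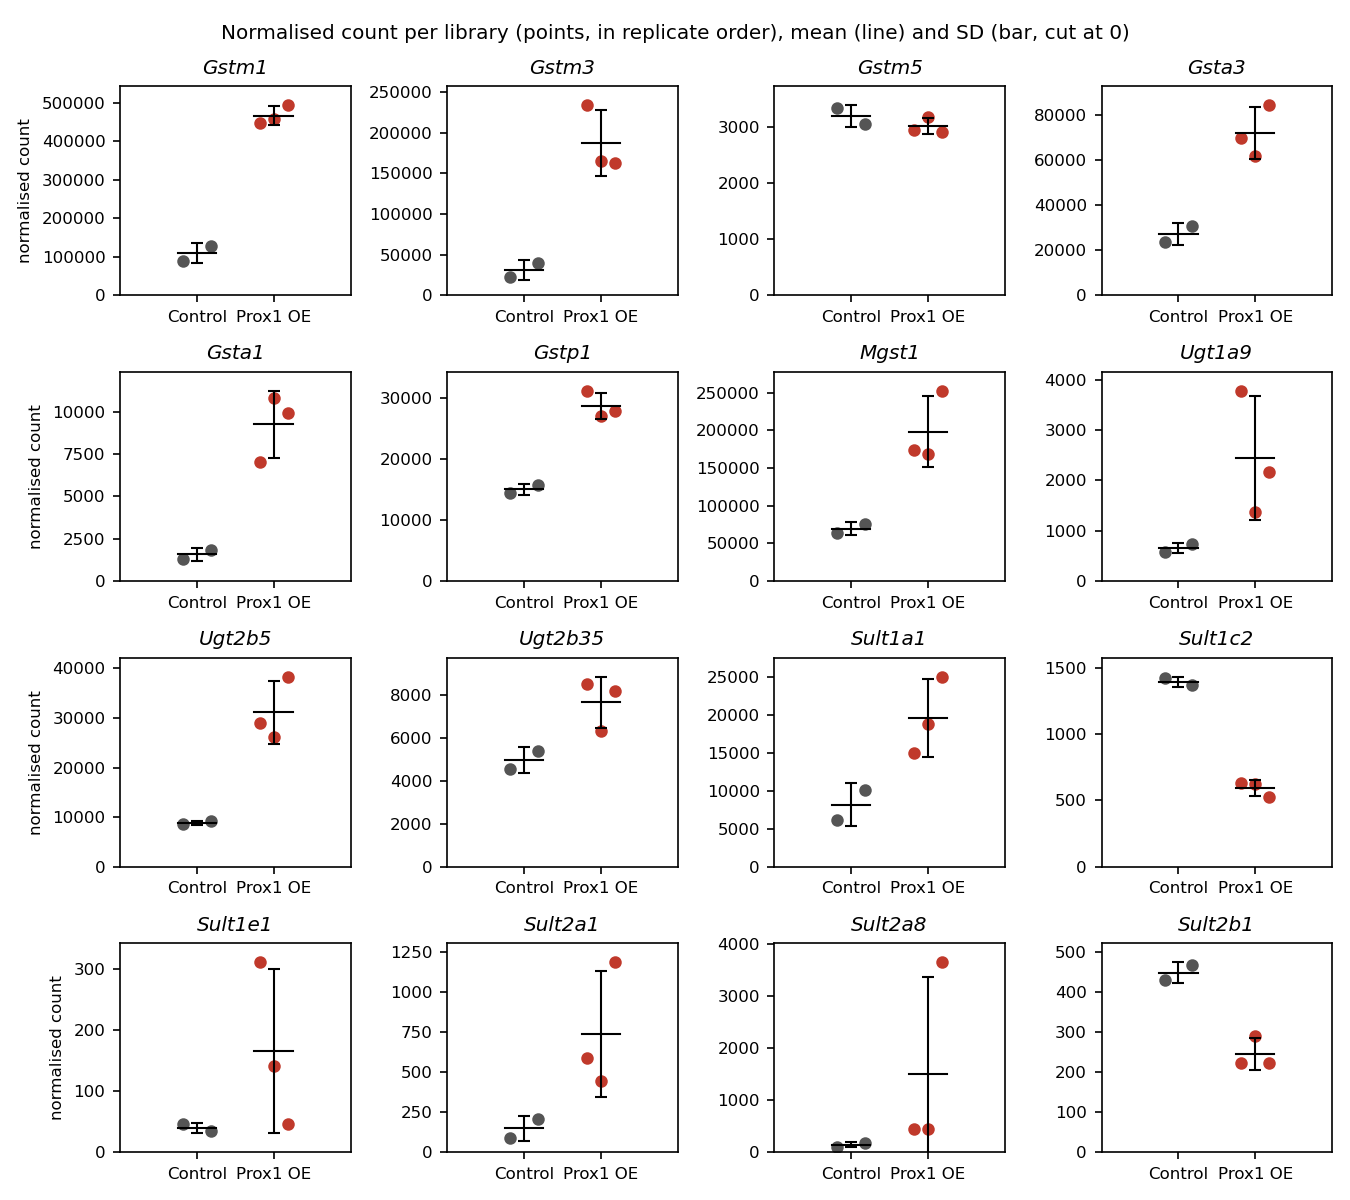
Normalised counts (vertical axes, from 0, each panel on its own scale) of 16 enzymes in the 2 Control and 3 Prox1 OE libraries, with points for libraries, lines for means and bars for SD cut at 0. Gstm5 overlaps between the groups, Sult1c2 and Sult2b1 are lower in Prox1 OE, and a single Prox1 OE library stands far above the others for Sult2a8 (replicate 3, 3653) and Sult1e1 (replicate 1, 312).

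Among the glucuronosyltransferases 11 of 13 tested genes rose and none was called lower. The Ugt2b enzymes, which act on steroids, bile acids and drugs, supplied most of the Ugt reads. Ugt2b5 was the most abundant per kilobase, at 8531 and 9114 normalised counts in Control and 28932, 26225 and 38352 in Prox1 OE (log2 rise 1.80 ± 0.18, adjusted p = 0.00234). Its share of the Ugt2b reads was 25.9% and 25.0% in Control and 30.2% to 34.2% in Prox1 OE. Ugt2b36 rose by 1.60 ± 0.18, Ugt2b1 by 1.38 ± 0.36 and Ugt2b34 by 1.26 ± 0.17. At the lower end, Ugt2b35 was at 4564 and 5412 against 8518, 6322 and 8228 (0.62 ± 0.16, adjusted p = 0.0251), and Ugt2b37 rose by 0.97 ± 0.28. The call of Ugt2b35 was lost under 5 alternatives (adjusted p of up to 0.350, log2 difference down to 0.19 with the total count), that of Ugt2b37 under 7 (up to 0.219) and that of Ugt2b1 under 5 (up to 0.156). Ugt2b35 is the only plus-strand gene of the chromosome 5 array, which also holds Ugt2a3, Sult1b1, Sult1d1 and Sult1e1. Ugt2b38, at 75.6 and 34.8 against 87.9, 99.1 and 182, did not pass (1.17 ± 0.44, adjusted p = 0.0754), and 24.2% of its stretches occur in Ugt2b5. DESeq2 was the only alternative that called Ugt2b38 higher.

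Ugt2a3 rose from 1600.4 and 1900.4 normalised counts to 5391, 4189 and 6541 (log2 1.60 ± 0.19), whereas its neighbours Ugt2a1 and Ugt2a2, olfactory enzymes, had no read in any library, which allows up to 3 reads per library. Those 2 share 94.4% and 94.9% of their stretches with each other, and how such reads were counted is not given in the sources used here. Ugt3a2 and Ugt3a1, which use sugars other than glucuronic acid, rose by 1.39 ± 0.21 and 1.21 ± 0.28, and Ugt3a1 was not called with either Control replicate left out.

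The Ugt1a genes on chromosome 1 join alternative first exons to shared later exons. Of each member's stretches, 57.2% to 63.1% occur in another one. How reads in the shared exons were counted is not given in the sources used here, so the separate values are uncertain. Ugt1a9, a phenol-conjugating enzyme, was at 579 and 729.8 normalised counts in Control and at 3779, 1379 and 2171 in Prox1 OE (log2 rise 1.79 ± 0.37, adjusted p = 0.0111). Ugt1a5 went from 339 and 363 to 1267, 511 and 895 (1.25 ± 0.34, adjusted p = 0.0282), a call lost under 6 alternatives with an adjusted p of up to 0.153. For both, Prox1 OE replicate 1 was the highest library and replicate 2 the lowest of the 3. Ugt1a1, the bilirubin-conjugating enzyme, overlapped between the groups, at 1021 and 1492 against 1881, 1297 and 2088. Its log2 difference of 0.48 ± 0.24 had a 95% interval from -0.08 to 1.04 (adjusted p = 0.161). Ugt1a2 was the one glucuronosyltransferase with lower values in every Prox1 OE library, at 14.8 and 14.4 against 3.07, 1.18 and 3.47, that is 18 and 17 reads against 3, 1 and 3. It was below the limit for testing. Ugt1a10 had 1 and 3 reads in Control and 14, 0 and 4 in Prox1 OE, and Ugt1a8 had at most 4 reads in a library.

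Of 17 tested sulfotransferases 11 rose and 2 fell, the only called falls among the enzymes. Sult1a1, a phenol sulfotransferase, held 66.4% to 76.9% of the family's reads and went from 6205 and 10168 normalised counts to 14937, 18828 and 25069 (log2 rise 1.27 ± 0.27, adjusted p = 0.0120). Sult1d1, a mouse catecholamine sulfotransferase, went from 417 and 801 to 2297, 1434 and 2774 (1.85 ± 0.34). Sult1b1, which acts on thyroid hormones, went from 144 and 234 to 695, 504 and 668 (1.74 ± 0.25). The oestrogen sulfotransferase Sult1e1 was uneven, at 46.0 and 34.8 in Control and 312, 142 and 46.3 in Prox1 OE. Its replicate 3 lay level with Control replicate 1, and the log2 difference of 1.65 ± 0.70 did not pass (adjusted p = 0.107). Sult1e1 was called higher by DESeq2, with the replicate block and without Prox1 OE replicate 3. Without Prox1 OE replicate 3 the difference was 2.37 (adjusted p = 0.0114) and without Prox1 OE replicate 1 it was 1.00 (adjusted p = 0.191), and the adjusted p reached 0.324 without Control replicate 2.

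Sult1c2 fell. It was at 1424 and 1369 normalised counts in Control and at 629, 625 and 525 in Prox1 OE, a log2 difference of -1.24 ± 0.14 (SE, adjusted p = 0.00246) that passed under every alternative run. Within the Sult1 reads its share went from 17.3% and 10.9% to 3.33%, 2.90% and 1.81%. Sult2b1, which sulfates cholesterol and related sterols, fell as well, from 429 and 466 to 222, 290.3 and 223 (-0.88 ± 0.19, adjusted p = 0.0125), and was no longer called when either Control replicate was left out. Both are separate from the liver arrays that rose, since Sult1c2 lies on chromosome 17 and Sult2b1 on chromosome 7 apart from the Sult2a genes.

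Sult2a enzymes sulfate bile acids and hydroxysteroids, and their 8 genes form an array on chromosome 7 (chr7:13623967-14494230). Of the 8 genes 6 rose, and the 8 log2 differences lay between 1.78 (Sult2a6) and 2.68 (Sult2a4). The upper end is uncertain, since Sult2a4 ran from 1.49 without Control replicate 1 to 3.87 without Control replicate 2. Sult2a4 and Sult2a7 passed the limit on low values only through their Prox1 OE libraries, and without them 5 of 6 rose. Sult2a1 was at 92.8 and 207 normalised counts in Control and at 593, 444 and 1189 in Prox1 OE (2.28 ± 0.46, adjusted p = 0.0104). Sult2a2, the highest per kilobase on the mean over the libraries although Sult2a1 was above it in Prox1 OE replicate 3 (1165 against 1157), went from 87.1 and 189 to 554, 400.0 and 858 (2.15 ± 0.40, adjusted p = 0.00771), with 34.6% of its stretches shared with Sult2a5. All 8 genes were highest in Prox1 OE replicate 3. Sult2a8, a bile acid sulfotransferase, showed this most sharply, at 113 and 183 in Control and 441, 452 and 3653 in Prox1 OE. Its replicate 3 was 8.18 times the mean of the other 2 Prox1 OE libraries, and with a log2 difference of 2.63 ± 0.86 it fell just short of the threshold (adjusted p = 0.0505). It was called higher under 9 alternatives, among them TMM factors, edgeR, DESeq2 and a mean of at least 50, and with 1 library left out it ran from 1.62 without Prox1 OE replicate 3 (adjusted p = 0.00941) to 3.15 without Prox1 OE replicate 1 (adjusted p = 0.0408), with an adjusted p of 0.236 without Control replicate 1. Sult2a7 (5.75 and 1.70 against 11.2, 13.0 and 67.1) had the same shape and did not pass (adjusted p = 0.0632). It was called higher by DESeq2 and without Prox1 OE replicate 1 only. The calls of Sult2a4, Sult2a6 and Sult2a5 were lost under 5, 4 and 3 alternatives, with adjusted p of up to 0.172, 0.167 and 0.131, and those of Sult2a1, Sult2a2 and Sult2a3 under 1 each. For the 6 called genes replicate 3 was 1.80 to 2.43 times the mean of the others.

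Among the remaining sulfotransferases Sult5a1 rose from 14.0 and 38.1 normalised counts to 73.6, 183 and 288 (log2 2.71 ± 0.62, adjusted p = 0.0158). With 1 library left out its difference ran from 2.02 to 3.40, and the call was lost without Control replicate 1 (adjusted p = 0.125) and without Prox1 OE replicate 2 (adjusted p = 0.0646). Sult4a1, best known from brain, rose from 287 and 289 to 657, 686 and 833 (1.32 ± 0.16). Sult3a1 was at 6.57 and 2.54 against 9.20, 13.0 and 109 and did not pass (2.27 ± 1.01, adjusted p = 0.121). DESeq2 was the only alternative that called Sult3a1 higher. With 1 library left out its difference ran from 1.21 without Prox1 OE replicate 3 to 2.92 without Prox1 OE replicate 1. Sult3a2, Sult6b1 and Sult6b2 were at 0 to 4.11 normalised counts, and Sult1c1 had no read.

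Prox1 OE replicate 3 held the highest Prox1 OE value for 35 of the 54 enzymes (64.8%), against 34.5% of all tested genes, while replicate 1 held 11 (20.4% against 40.0%) and replicate 2 held 8 (14.8% against 25.5%). Without the Sult2a genes and Sult3a1, which passed the limit on low values only through Prox1 OE, replicate 3 was highest for 26 of 45. The same library had the lowest Prox1 count of its group and the highest summed hepatocyte markers. The periportal list (7 of 8 rose, sums of 48236 and 79519 in Control against 214655, 237607 and 355652) and the pericentral list (6 of 8 rose, 45243 and 65259 against 121333, 156073 and 246513) also peaked in it. These 2 counts stand beside the 17.1% of all tested genes that rose. Sums of the Kupffer cell and macrophage, endothelial, T and B cell, erythroid, intestinal and pancreatic lists were highest in replicate 3 too. Those of the cholangiocyte, stellate cell and fibroblast, and proliferation lists were lowest in it. Its normalised total was 65539843, against 57408862 and 57513026 in Prox1 OE replicates 1 and 2. Without Prox1 OE replicate 3, 42 enzymes were called higher and 12.7% of all genes.

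**Figure D5:**
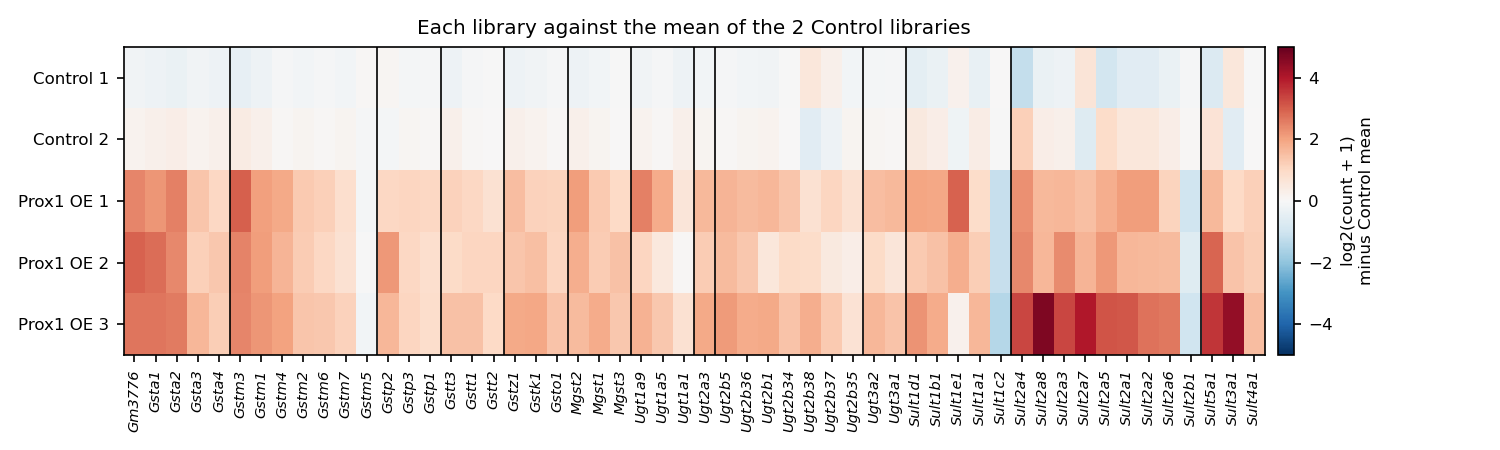
Colour gives log2(normalised count + 1) of each library minus the mean of the 2 Control libraries for the 54 tested enzymes (columns, by subfamily) and 5 libraries (rows). The Prox1 OE rows are red for most enzymes and blue at Sult1c2 and Sult2b1, Gstm5 is near white, and the darkest red lies in replicate 3 at Sult2a8 and Sult3a1.

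To see what the enzyme genes share upstream, RefSeq promoter windows (250 bases before to 50 after the start, build GRCm38.p6, the sequence of mm10) were searched on both strands for 5 short motifs. A window was given for 58 of the 65 genes, 47 of them tested. The pattern GTTAATNAT, a motif of liver gene promoters, was in 7 of the 47 (14.9%) and in 0.801% of all 32851 windows, and by call in 6 of the 39 members that rose (15.4%) and 1 of the 6 that were not called (16.7%). The TATA box pattern TATAAA was in 19.1% of the 47 against 13.6% of all windows. GCGTG, the core of the aryl hydrocarbon receptor site, was in 23.4% against 32.4%, and CAAAGTCCA, a core of the HNF4 site, was in none against 0.475%. TGACNNNGC, the core of the antioxidant response element bound by NRF2, was in 6.38% against 12.4%, namely in Gsta3, Mgst1 and the flat Gstm5. A match is a string of letters and not a site shown to be bound. The 150 bases before the start are given 5′ to 3′ for the 7 tested genes with GTTAATNAT, and for Gsta3 as an example of TGACNNNGC, with letters of any of the 5 motifs, on either strand, in capitals.
Sult2a3 (chr7:14123049-14123198, minus strand): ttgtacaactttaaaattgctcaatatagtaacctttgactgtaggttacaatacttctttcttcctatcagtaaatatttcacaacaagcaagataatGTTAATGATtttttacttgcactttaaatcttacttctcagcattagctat
Sult2a4 (chr7:13989589-13989738, minus strand): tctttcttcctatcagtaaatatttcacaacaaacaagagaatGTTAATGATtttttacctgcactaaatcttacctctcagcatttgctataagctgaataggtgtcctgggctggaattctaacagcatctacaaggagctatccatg
Sult2a5 (chr7:13623817-13623966, plus strand): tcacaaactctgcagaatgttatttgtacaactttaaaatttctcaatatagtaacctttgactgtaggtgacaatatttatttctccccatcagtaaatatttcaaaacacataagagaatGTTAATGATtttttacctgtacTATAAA
Sult2a6 (chr7:14254871-14255020, minus strand): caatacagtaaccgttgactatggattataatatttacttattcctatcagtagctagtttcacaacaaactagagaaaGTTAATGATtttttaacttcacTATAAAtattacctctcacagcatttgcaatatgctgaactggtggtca
Sult1d1 (chr5:87569007-87569156, minus strand): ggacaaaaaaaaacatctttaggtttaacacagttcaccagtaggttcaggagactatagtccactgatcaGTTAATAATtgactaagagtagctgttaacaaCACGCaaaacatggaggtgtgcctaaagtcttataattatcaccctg
Ugt1a9 (chr1:88070629-88070778, plus strand): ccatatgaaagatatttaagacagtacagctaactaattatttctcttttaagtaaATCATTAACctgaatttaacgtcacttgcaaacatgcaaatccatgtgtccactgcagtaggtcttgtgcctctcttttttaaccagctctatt
Ugt1a1 (chr1:88211809-88211958, plus strand): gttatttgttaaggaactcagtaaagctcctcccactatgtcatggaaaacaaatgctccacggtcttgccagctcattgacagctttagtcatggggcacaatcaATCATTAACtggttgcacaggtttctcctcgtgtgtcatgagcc
Gsta3 (chr1:21240435-21240584, plus strand): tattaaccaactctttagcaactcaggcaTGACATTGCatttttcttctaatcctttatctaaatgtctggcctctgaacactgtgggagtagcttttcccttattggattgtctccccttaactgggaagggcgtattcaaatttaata
Of these, 4 belong to the Sult2a array, for which 5 of 8 genes had a window, and in all 4 the letters GTTAATGAT are followed by ttttta. Since those genes are close copies, their windows are not independent of each other. In the Ugt1a locus Ugt1a9, Ugt1a1 and Ugt1a10 hold the pattern on the opposite strand. Of these Ugt1a9 rose, Ugt1a1 did not pass the test and Ugt1a10 was too low to test.

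Genes that supply the donors of the 3 kinds of conjugation were examined next, and their counts stand beside the 17.1% of all tested genes that rose and the 16.2% that fell. For UDP-glucuronic acid 4 of 5 genes rose, among them Ugdh (log2 1.29 ± 0.21), which makes it, Ugp2 (0.75 ± 0.18), which makes its precursor, and the transporter Slc35d1 (1.09 ± 0.15), with Slc35b1 at 0.37. For sulfate activation 4 of 7 rose and 1 fell. The PAPS synthases moved in opposite directions, Papss2 from 1235 and 1406 normalised counts to 3876, 2405 and 4518 (1.40 ± 0.25, adjusted p = 0.00680) and Papss1 from 4625 and 4354 to 3236, 2959 and 2623 (-0.62 ± 0.13, adjusted p = 0.0106). The sulfate transporter Slc26a1 (1.61), the sulfite oxidase Suox (1.14) and the sulfide oxidase Sqor rose too. Of 15 genes for glutathione supply and turnover 5 rose and none fell. They were Cth (2.27 ± 0.29), which yields cysteine, the synthesis enzymes Gclc (0.95) and Gss (0.56), and Oplah (0.60) and Ggct (0.46). Gclm, the modifier subunit partnering Gclc, was at 9789.8 and 10097 against 11659, 10433 and 11924 (0.19 ± 0.12, adjusted p = 0.258), and glutathione reductase Gsr was at 0.17 ± 0.12.

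Conjugation enzymes of other kinds rose with the 4 families. Their counts, and those of the hydrolases below, stand beside the 17.1% of all tested genes that rose. Of 15 methyl-, acetyl- and acyltransferases and their helpers 14 rose, with a median log2 difference of 1.58. The largest was Gnmt, the glycine methyltransferase, from 1719.5 and 4425 normalised counts to 15115, 15724 and 26962 (2.75 ± 0.41, adjusted p = 0.00384), and the exception was Nat8 (0.28 ± 0.18). Baat, which joins bile acids to amino acids, rose by 1.68, and Nnmt, which methylates nicotinamide, by 1.72. Of 5 genes that hydrolyse conjugates or epoxides 3 rose, the epoxide hydrolases Ephx2 (1.44) and Ephx1 (1.01) and the sulfatase Arsa (0.51), with the glucuronidase Gusb at 0.09 ± 0.15.

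Known regulators of these enzymes split, where 17.1% of all tested genes rose and 16.2% fell. Of 13 factors 6 rose, among them the xenobiotic receptors Nr1i3 (CAR, log2 1.66 ± 0.40) and Nr1i2 (PXR, 1.06 ± 0.13), their partner Rxra (0.76), and the hepatocyte factors Hnf4a (1.15 ± 0.16) and Cebpa (0.66). Nr1i3 was at 613 and 1298 normalised counts in Control and 1748, 3244 and 3966 in Prox1 OE. Onecut1 fell by 1.87 on the log2 scale. The factors of the antioxidant and aryl hydrocarbon responses did not pass the test, with Nfe2l2, which encodes NRF2, at 10176 and 10013 against 9489.7, 7606 and 8769 (-0.23 ± 0.13, adjusted p = 0.204), its partner Keap1 at 0.17 and Ahr at -0.41 ± 0.15 (adjusted p = 0.0750).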

How the data were processed

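The authors prepared stranded (dUTP) libraries, sequenced them as pairs of 100 base reads and mapped these to mm10 with STAR. The counting tool is not given in the sources used here. The deposited table holds normalised counts (unit: signal), for which the authors scaled the reads of each library by its DESeq2 size factor. All values were whole multiples of 1 read (100%, within 0.001), so reads were recovered, and 0 columns were left unassigned. A deposited table of the authors' own comparison (fold changes, p-values) was not used. The library totals above bound precision, and floors of 3 reads cover counting error only.

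The members, companion lists and tests were chosen with earlier results of these data known. limma 3.58.1 (R 4.3.3; lmFit, eBayes with trend) was fitted two-sided to log2(normalised count + 1) of all genes with a mean of at least 10, and p-values were adjusted by Benjamini-Hochberg and called under 0.05. Differences are Prox1 OE minus Control on that scale, which understates changes of low genes, and errors after ± are SE unless stated. Rose, fell and called refer to this test. No covariate was used, and the model was tested on simulated data. Alternatives were TMM and upper-quartile factors, the total count, pseudocounts of 0.1 and 10, no filter, a mean of at least 50, limma without trend, edgeR 4.0.16, DESeq2 1.42.0, a replicate block and each library left out.

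Named per subfamily were the member highest per kilobase, the called members with the largest rise and fall, members near the limits and the largest changes of each companion list, and other members and list genes were added after their values were seen. Exon lengths, coordinates and shared 100 base stretches came from GENCODE transcripts of GRCm38, which matched 55137 of 55397 identifiers (99.5%). Promoters came from RefSeq (GRCm38.p6). Some genes of the companion lists are counted but not reported here by name.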

Additional observations from a re-analysis of the deposited data

How the results depend on the processing

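No enzyme changed direction under any alternative. Across the 54 enzymes and all settings, 788 results kept their side of the threshold, 17 gained a call and 56 lost one. Enzymes called higher, with the share of all genes tested in parentheses, numbered 46 with TMM (18.0%) or upper-quartile factors (20.0%), 43 with the total count (8.62%), 45 with either pseudocount (17.1%), 42 without a filter (8.41%), 45 of 51 at a mean of at least 50 (19.9%), 38 without the trend (13.4%), 46 by edgeR (17.3%) and 50 by DESeq2 (20.1%). Leaving out 1 library gave 22 to 45 called higher (3.98% to 21.9% of all genes) and 1 to 2 called lower. The lowest value came without Control replicate 1, and the enzymes called higher there were those called higher under every alternative. A lone Control library was assumed to vary like the other group. With the total count 3 enzymes were called lower, the third being Gstm5, and 8.62% of all genes were called higher against 39.9% lower.

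Replicate numbers do not pair the samples by the labels, and deviations of same-numbered libraries correlated at 0.14 and 0.02. With the replicate block (replicates 1 and 2 only) 47 enzymes were called higher (15.6% of all genes) and 2 lower (15.0%). The 11 untested genes had means under 10 normalised counts.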

Other observations

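Relatives of these families whose symbols fall outside the rule were examined as well, and 3 of 7 rose while 2 fell by limma. Over all tested genes 17.1% rose and 16.2% fell. Ugt1a6a, from the Ugt1a locus, was at 28.8 and 32.2 normalised counts in Control and at 139, 119 and 184 in Prox1 OE (log2 rise 2.22 ± 0.28 SE, adjusted p = 0.00276). Its neighbours Ugt1a6b (0.88 ± 0.41, adjusted p = 0.135) and Ugt1a7c (-0.53 ± 0.56, adjusted p = 0.497) did not pass, and Ugt1a7c had its highest value, 157, and its lowest, 39.3, within the Prox1 OE group. The pseudogenes Gstm2-ps1 (1.90 ± 0.25) and Gstp-ps (1.23 ± 0.25) rose too, and reads from near-identical copies may be split among them.

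The relatives that fell were Ugt8a and Gstcd. Ugt8a, which makes the lipid galactosylceramide, was at 2373 and 2155 normalised counts in Control and at 1323, 1403 and 1141 in Prox1 OE (-0.82 ± 0.13, adjusted p = 0.00507). Gstcd, which carries a Gst-like domain, was at 776 and 701 against 570, 427 and 432 (-0.64 ± 0.18, adjusted p = 0.0281). For both, every Prox1 OE library was below both Control libraries.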
